A study of Mus musculus with 15 samples.

Results

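The genes described here are 10 genes of the cellular response to low oxygen in mouse pancreatic ductal adenocarcinoma (PDAC): the oxygen-sensing prolyl hydroxylases Egln1 and Egln3, the transcription factor gene Hif1a, and the hypoxia-inducible factor (HIF) targets Pdk1, Bnip3, Slc2a1, Car9, P4ha1, Vegfa and Ndrg1. They were selected on their names as HIF pathway genes, with results of the same libraries already known, out of 55291 genes in each table. Because the choice was made with the DON, Gln-free and DRP-104 measurements in view, all values of these 10 genes in those libraries are a description, given with errors and no p-value. The samples were 15 bulk RNA libraries in 5 groups of 3. HY19636 is a PDAC line isolated from C57BL/6 mice whose alleles included p53 L/+ and Ptf1a Cre+, so all 15 samples derive from 1 line. Cultures in DMEM with 10% serum were left as controls, treated with 25 µM 6-diazo-5-oxo-l-norleucine (DON), a Gln analog that inhibits Gln-using enzymes, for 24 h, or kept without Gln for 24 h. Tumors grew after injection of HY19636 cells into the pancreas of female B6J mice of 8 to 10 weeks. The mice received vehicle or DRP-104, a pro-drug of DON, at 3 mg per kg daily in 2 cycles of 5 days on and 2 days off, starting 7 days after surgery.

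HIF is a dimer of an oxygen-regulated α subunit and a stable β subunit that binds DNA at short sequences with the core ACGTG or GCGTG. With oxygen present, prolyl hydroxylases of the Egln family use oxygen, iron and α-ketoglutarate to hydroxylate the α subunit, which the von Hippel-Lindau protein then marks for degradation. HIF raises glucose uptake, glycolysis, vessel growth and matrix modification, and it also raises Egln3 and Egln1, its own inhibitors. PDAC is known as a poorly perfused and hypoxic tumor, and Gln is a source of α-ketoglutarate. Because the α subunit is set mainly by protein stability, Hif1a mRNA is not a measure of HIF activity, and no protein or oxygen value belongs to these data.

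Libraries held 25.2 to 48.2 M recovered reads in the 9 cultures and 16.3 to 20.7 M in the 6 tumors. In both culture tables the 3 control columns carry the name also used for the vehicle tumors, and they were taken as the control cultures because those tables hold no other controls, and are numbered here in column order. In them 0 reads were counted for 3 of 6 fibroblast markers (Dcn, Lum and Pdgfrb), 2 of 6 macrophage markers (Adgre1 and Lyz2) and 4 of 6 T cell markers (Cd3e, Cd3g, Cd4 and Cd8a). The other markers of these lists were detected, and the summed levels were 397 to 524 normalized reads for fibroblast, 1689.5 to 2332 for macrophage and 72.3 to 94.4 for T cell markers. Epithelial markers (Krt8, Krt18, Krt19, Epcam, Cdh1 and Cldn4) were detected in every group, 6 of 6. The DON and Gln-free comparisons share these 3 control libraries. No source states whether the cultures of a group were separate experiments, so the intervals and p-values cover only the spread between these samples.

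The promoters of 4 members are printed because these genes behaved differently in culture: Egln3 and Pdk1 were lower after both treatments, Bnip3 was lower to unequal extents, and Vegfa was higher. Each sequence is the 250 bases before the transcription start in RefSeq, build GRCm38.p6, read 5′ to 3′ on the gene's strand: for Egln3 chr12:54203875-54204124 on the minus strand, for Pdk1 chr2:71872974-71873223 on the plus strand, for Bnip3 chr7:138909507-138909756 on the minus strand and for Vegfa chr17:46032378-46032627 on the minus strand. Capitals mark the HIF core letters ACGTG or GCGTG found on either strand.
Egln3: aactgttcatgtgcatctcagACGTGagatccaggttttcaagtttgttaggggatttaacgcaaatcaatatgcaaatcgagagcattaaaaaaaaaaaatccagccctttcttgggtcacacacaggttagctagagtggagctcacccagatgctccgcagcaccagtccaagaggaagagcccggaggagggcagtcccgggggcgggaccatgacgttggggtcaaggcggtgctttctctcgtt
Pdk1: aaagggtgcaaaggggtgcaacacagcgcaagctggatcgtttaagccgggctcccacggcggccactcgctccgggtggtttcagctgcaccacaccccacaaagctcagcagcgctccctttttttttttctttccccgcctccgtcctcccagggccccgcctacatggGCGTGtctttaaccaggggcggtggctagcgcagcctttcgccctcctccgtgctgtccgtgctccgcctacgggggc
Bnip3: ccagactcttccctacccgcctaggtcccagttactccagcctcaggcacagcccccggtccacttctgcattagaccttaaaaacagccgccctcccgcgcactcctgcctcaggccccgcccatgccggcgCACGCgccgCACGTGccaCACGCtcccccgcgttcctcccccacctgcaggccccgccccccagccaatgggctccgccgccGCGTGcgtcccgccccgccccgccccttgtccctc
Vegfa: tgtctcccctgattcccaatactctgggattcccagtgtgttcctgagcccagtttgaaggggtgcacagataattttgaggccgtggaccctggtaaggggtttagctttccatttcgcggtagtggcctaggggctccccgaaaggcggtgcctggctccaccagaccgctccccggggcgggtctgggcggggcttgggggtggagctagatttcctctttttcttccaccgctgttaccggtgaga
The Bnip3 window held 5 matches, of which 2 overlap in CACGTG, the letters that also form an E-box. The Egln3 and Pdk1 windows held 1 match each, and the Vegfa window held 0. The 9 genes had 11 windows, and the one nearest to the annotated start of the gene was taken, where the second window of Vegfa held 2 matches and that of Pdk1 held 0. Windows were matched by symbol for 9 of the 10 members (all but Ndrg1), and 8 of these 9 held at least 1 match. Of all 32851 RefSeq windows of the same 250 bases, 38.6% held at least 1. This share counts every window of a gene, whereas for the members only the window nearest to the annotated start was counted. The letters CACGTG were in the windows of Bnip3 and Hif1a, 2 of 9, against 6.02% of all windows. A match describes the letters only, and a window without a match says nothing of the sequence outside its 250 bases.

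In culture, the 10 genes did not all differ from the controls in the same direction. Egln3, Pdk1, Bnip3, Egln1, Slc2a1 and Car9 were lower after DON and also without Gln, Vegfa and Ndrg1 were higher under both treatments, P4ha1 was higher after DON and lower without Gln, and Hif1a passed the threshold in neither. With limma and an adjusted p under 0.05 over all genes, 9 of the 10 passed after DON (3 higher, 6 lower) and 9 without Gln (2 higher, 7 lower). Of all genes tested, 68.1% passed after DON (33.3% higher, 34.7% lower) and 69.4% without Gln (34.5% higher, 34.9% lower), and since the genes were chosen with these comparisons known nothing is read from the counts. Over the 10 genes the log2 differences had a median of -0.67 for DON and of -0.97 for Gln withdrawal, and over all genes tested the medians were 0.02 and 0.01. All 10 passed the filter on low values in every comparison, which was set on the mean over all libraries of a fit. In the Gln-free comparison the treated mean of Car9 was 9.95, under the minimum of 10. Car9 was tested there only through its controls (26.7).

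**Figure D1:**
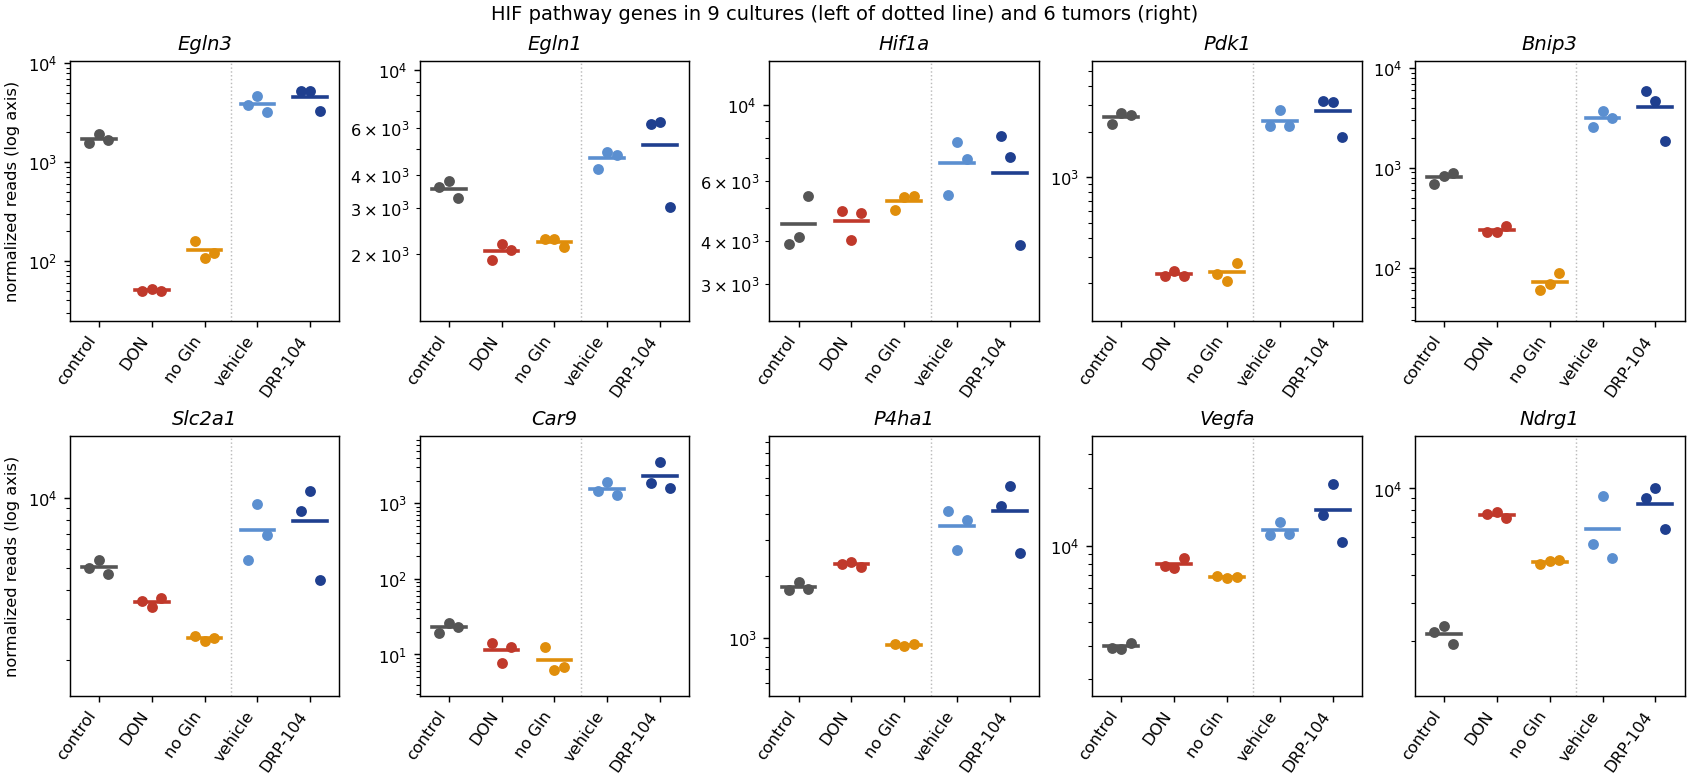
Normalized reads of each gene (y axes, logarithmic, 1 panel per gene) in the 3 libraries of each group (x axes), scaled together over all 15 libraries, with a short line at each group mean. Egln3 and Pdk1 lie lowest in the DON and Gln-free cultures and far above these in all 6 tumors, and Car9 lies far higher in the tumors than in any culture.

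Egln3 (ENSMUSG00000035105, chr12:54178981-54203860, coordinates of GRCm38 here and for the other genes), the hydroxylase whose own gene is a classical HIF target, showed the largest differences of the 10 in both treatments. Its normalized reads were 1928, 2387 and 2006 in the control libraries and 59.7, 62.8 and 60.4 in the DON libraries. The 3 DON libraries lay close together and far below every control. The means were 2107 ± 245 and 61.0 ± 1.62 (SD, n = 3), 34.6-fold lower after DON (log2 difference -5.08, SE 0.138, 95% interval -5.38 to -4.79). The DON values rest on 50 to 72 recovered reads per library. Without Gln, Egln3 stood at 184, 126 and 140.1 normalized reads beside 2002 ± 226 in the controls of that table, 13.3-fold lower (log2 difference -3.74, SE 0.149, 95% interval -4.07 to -3.42). Each Gln-free library lay below each control.

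Egln1 (ENSMUSG00000031987, chr8:124908596-124949254), the main hydroxylase of HIF α subunits in most tissues, was lower by much less. Control libraries held 4415, 4648 and 3919 normalized reads and DON libraries 2264, 2612 and 2503, 1.76-fold lower (log2 difference -0.81, SE 0.0966, 95% interval -1.02 to -0.61). Without Gln the 3 libraries held 2669.5, 2644 and 2465, 1.59-fold lower than the controls (log2 difference -0.66, SE 0.0867, 95% interval -0.85 to -0.47). The groups did not overlap under either treatment. Hif1a (ENSMUSG00000021109, chr12:73901375-73947530), the gene of the oxygen-regulated α subunit, held 4795, 5057 and 6518 normalized reads in control libraries and 5855, 4808 and 5824 in DON libraries. These ranges overlapped, and the log2 difference of 0.02 had a 95% interval of -0.24 to 0.27. Without Gln its values were 5733, 6279.5 and 6274 (log2 difference 0.25, SE 0.114, 95% interval -0.0018 to 0.49). Control library 3 was the high control, and without it Hif1a passed the threshold in the Gln-free comparison with a log2 difference of 0.39.

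Among the metabolic targets, Pdk1 (ENSMUSG00000006494, chr2:71873224-71903858), whose kinase product inhibits pyruvate dehydrogenase and so limits the entry of pyruvate into the TCA cycle, was lower to nearly the same extent under both treatments. Its normalized reads were 2736, 3249.5 and 3082 in control libraries, 267, 288 and 269 in DON libraries (log2 difference -3.45, SE 0.108, 95% interval -3.68 to -3.22) and 268, 242 and 315 in Gln-free libraries, where the controls of that table averaged 2874 ± 259.7 (log2 difference -3.38, SE 0.121, 95% interval -3.65 to -3.12). The fold was 11.0 after DON and 10.4 without Gln, and no treated library came near a control. Bnip3 (ENSMUSG00000078566, chr7:138890836-138909519), which acts in mitophagy and cell death, held 855, 1012 and 1073 normalized reads in control libraries and 271, 269.6 and 312 after DON, 3.45-fold lower (log2 difference -1.78, SE 0.131, 95% interval -2.06 to -1.50). Without Gln it held 68.9, 80.5 and 103, 11.1-fold lower than the controls (log2 difference -3.47, SE 0.171, 95% interval -3.84 to -3.09). Both treated groups lay below all controls of their own table.

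Slc2a1 (ENSMUSG00000028645, chr4:119108711-119137330), the glucose transporter GLUT1, held 6097, 6643 and 5653 normalized reads in control libraries and 4290.2, 4039.9 and 4468 after DON, 1.44-fold lower (log2 difference -0.52, SE 0.0907, 95% interval -0.72 to -0.33). Without Gln it held 2971, 2812 and 2879, 2.02-fold lower (log2 difference -1.01, SE 0.0831, 95% interval -1.19 to -0.83). Car9 (ENSMUSG00000028463, chr4:43506966-43513729), a carbonic anhydrase of the cell surface that is widely used as a hypoxia marker, was near the lower limit of detection in all 9 cultures. It had 19 to 43 recovered reads in control libraries, 10 to 18 after DON and 7 to 14 without Gln. Its normalized reads were 23.9, 32.5 and 27.9 in control libraries, 16.7, 9.23 and 15.1 after DON (log2 difference -1.02, SE 0.418, 95% interval -1.91 to -0.12) and 14.6, 7.23 and 8.01 without Gln, beside a control mean of 26.7 ± 4.08 in that table (log2 difference -1.39, SE 0.438, 95% interval -2.34 to -0.44). The groups did not overlap, but after DON Car9 no longer passed the threshold with DESeq2, without the filter, with quantile normalization, or without DON library 2 or 3 or any 1 of the 3 control libraries, with log2 differences from -1.12 to -0.77.

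P4ha1 (ENSMUSG00000019916, chr10:59323296-59373304), a subunit of the prolyl hydroxylase that modifies collagen, went in opposite directions. Control libraries held 2095, 2300.4 and 2067 normalized reads and DON libraries 2716, 2808 and 2660.4, 1.27-fold higher (log2 difference 0.34, SE 0.089, 95% interval 0.15 to 0.53). Gln-free libraries held 1086, 1055 and 1074, 1.91-fold lower than their controls (log2 difference -0.93, SE 0.0883, 95% interval -1.12 to -0.74). In each case all 3 treated libraries lay on 1 side of all controls.

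Vegfa (ENSMUSG00000023951, chr17:46016993-46032377), the vascular growth factor, and Ndrg1 (ENSMUSG00000005125, chr15:66929321-66969640), a stress-responsive gene, were higher under both treatments. Vegfa held 3589, 3569 and 3733 normalized reads in control libraries, 9336, 9158 and 10357 after DON and 8046, 7912 and 7920.5 without Gln, beside a control mean of 3451 ± 129 in that table. That was 2.65-fold higher after DON (log2 difference 1.40, SE 0.0858, 95% interval 1.22 to 1.59) and 2.31-fold higher without Gln (log2 difference 1.21, SE 0.0762, 95% interval 1.04 to 1.37). Ndrg1 held 2709, 2877 and 2343 normalized reads in control libraries, 9103, 9291 and 8849 after DON (log2 difference 1.79, SE 0.0937, 95% interval 1.58 to 1.99) and 5245, 5396 and 5465 without Gln, beside a control mean of 2510.1 ± 232 in that table (log2 difference 1.10, SE 0.0881, 95% interval 0.91 to 1.29). It was 3.44-fold and 2.14-fold higher, and no treated library of either gene overlapped a control.

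To compare the treatments with each other, the 9 culture libraries were scaled together. Of the 10 genes, 6 passed the threshold between DON and Gln-free cells, 5 higher after DON and 1 lower, where 63.3% of all genes tested passed (31% higher, 32.3% lower), and these counts too are a description. Egln3 was the member lower after DON than without Gln, by 2.53-fold (log2 difference -1.31, SE 0.157, 95% interval -1.64 to -0.97). Bnip3 was 3.28-fold higher after DON than without Gln (log2 difference 1.72, SE 0.161, 95% interval 1.38 to 2.06), and P4ha1 was 2.47-fold higher (log2 difference 1.31, SE 0.0776, 95% interval 1.14 to 1.47). Ndrg1 (0.72), Slc2a1 (0.52) and Vegfa (0.23) differed by less on the log2 scale. For Pdk1 the interval of the log2 difference was -0.29 to 0.22 and for Egln1 it was -0.30 to 0.06, so differences of either gene beyond 0.30 lay outside the interval. Hif1a (-0.43 to 0.04) and Car9 (-0.54 to 1.35) did not pass either. Hif1a had no overlap between the groups and passed with a log2 difference of -0.19 when the control libraries were left out of the fit, and Vegfa did not pass without DON library 3 (0.18).

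In the tumors none of the 10 genes passed the threshold between DRP-104 and vehicle, and 0% of all genes tested did. At an unadjusted p under 0.05, limma counted 0 of the 10 genes and 775 of all 15454 genes tested. With adjustment, edgeR called 0 genes and DESeq2 called 70 of 28696, and 0 of the 70 were among the 10. Log2 differences ran from -0.14 for Hif1a to 0.50 for Car9, and their median was 0.21, beside -0.01 over all genes tested. Vehicle tumors held 2948, 3703 and 2502 normalized reads of Egln3 and DRP-104 tumors 4059, 4158 and 2515. The lowest tumors of both groups were at the same level, and the log2 difference was 0.21 (SE 0.234, 95% interval -0.33 to 0.75). For Pdk1 vehicle tumors held 1689, 2163 and 1705 and DRP-104 tumors 2486, 2497 and 1427 (log2 difference 0.17, SE 0.237, 95% interval -0.37 to 0.71). For Vegfa vehicle tumors held 8887, 10402 and 9026 and DRP-104 tumors 11361, 16801 and 8039 (log2 difference 0.29, SE 0.259, 95% interval -0.30 to 0.89). For Car9 vehicle tumors held 1156, 1499 and 1015 and DRP-104 tumors 1437, 2819 and 1227 (log2 difference 0.50, SE 0.308, 95% interval -0.21 to 1.21). For each of these 4 genes the third DRP-104 tumor was the lowest of its group. Bnip3 had the largest SE of the 10 genes, with 2013, 2899.9 and 2504 normalized reads in vehicle tumors and 4566, 3697 and 1430.4 in DRP-104 tumors (log2 difference 0.24, SE 0.394, 95% interval -0.67 to 1.15). Hif1a held 4261, 6134 and 5479.9 and, on DRP-104, 6329, 5602 and 2989 (log2 difference -0.14, SE 0.286, 95% interval -0.80 to 0.51). The intervals of the other genes were -0.57 to 0.75 for Egln1, -0.71 to 0.88 for Slc2a1, -0.48 to 0.88 for P4ha1 and -0.21 to 1.05 for Ndrg1, and each included 0. The groups overlapped for 10 of 10 genes, where 10.6% of all genes tested had groups that did not overlap.

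The spread between tumors was wide. DRP-104 tumor 3 held the lowest value of its group for 10 of 10 genes and the lowest of all 6 tumors for 7 of 10, whereas DRP-104 tumor 2 held the highest of all 6 for 8 of 10. The median SD of the 10 genes on the log2 scale was 0.583 among DRP-104 tumors and 0.277 among vehicle tumors, against 0.118 within culture groups. DRP-104 tumor 3 also had a summed level of T cell markers (Cd3e, Cd3g, Cd4, Cd8a, Lck and Trac, all 6 detected) of 1574 normalized reads, where the other 5 tumors had 50.7 to 113. The summed level of fibroblast markers was 37823 to 82008 in vehicle tumors and 17620.3 to 30592 in DRP-104 tumors (6 of 6 detected), and that of endothelial markers was 2965 to 3553 and 1931 to 2804, both without overlap. That of macrophage markers was 8979 to 11479 and 6445 to 13035, of acinar markers 188 to 3104 and 223 to 1108, of erythroid markers 894 to 2447 and 401 to 1157 and of epithelial markers 125741 to 178328 and 140824 to 189632, all overlapping. The part of these cells in the values was not tested, and in bulk tumor RNA fewer cells of a type and less RNA per cell cannot be told apart. Without DRP-104 tumor 3, all 10 log2 differences were above 0, from 0.19 for Hif1a to 0.75 for Bnip3, with a median of 0.50, and 0 of 10 passed. Without DRP-104 tumor 2 the median was 0.03 and without DRP-104 tumor 1 it was 0.07, with 6 of 10 above 0 in both cases.

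A further table of values per gene length and library size (FPKM) has 3 DRP-104 and 3 vehicle columns whose deviations did not follow the tumors of the same name, and it was used by group. The choice of the 10 genes did not use these columns, but whether they are other tumors or the same ones is not given in the sources used here, so the p-values may not be independent of the choice. With limma, 0 of 10 genes passed (0% of 14183 genes tested, 1079 at an unadjusted p under 0.05 and 0 of them members), with adjusted p-values from 0.63 to 0.93. Egln3 held 59.8, 44.7 and 82.2 FPKM in vehicle columns and 73.1, 46.4 and 93.4 in DRP-104 columns (log2 difference 0.17, 95% interval -0.53 to 0.88, adjusted p = 0.804 by limma). Car9 held 23.5, 18.1 and 21.3 FPKM in vehicle columns and 33.9, 18.9 and 36.7 in DRP-104 columns (log2 difference 0.44, 95% interval -0.14 to 1.03, adjusted p = 0.63 by limma). The groups overlapped for 10 of 10 genes in these columns too, where 19.3% of all genes tested had groups that did not overlap.

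**Figure D2:**
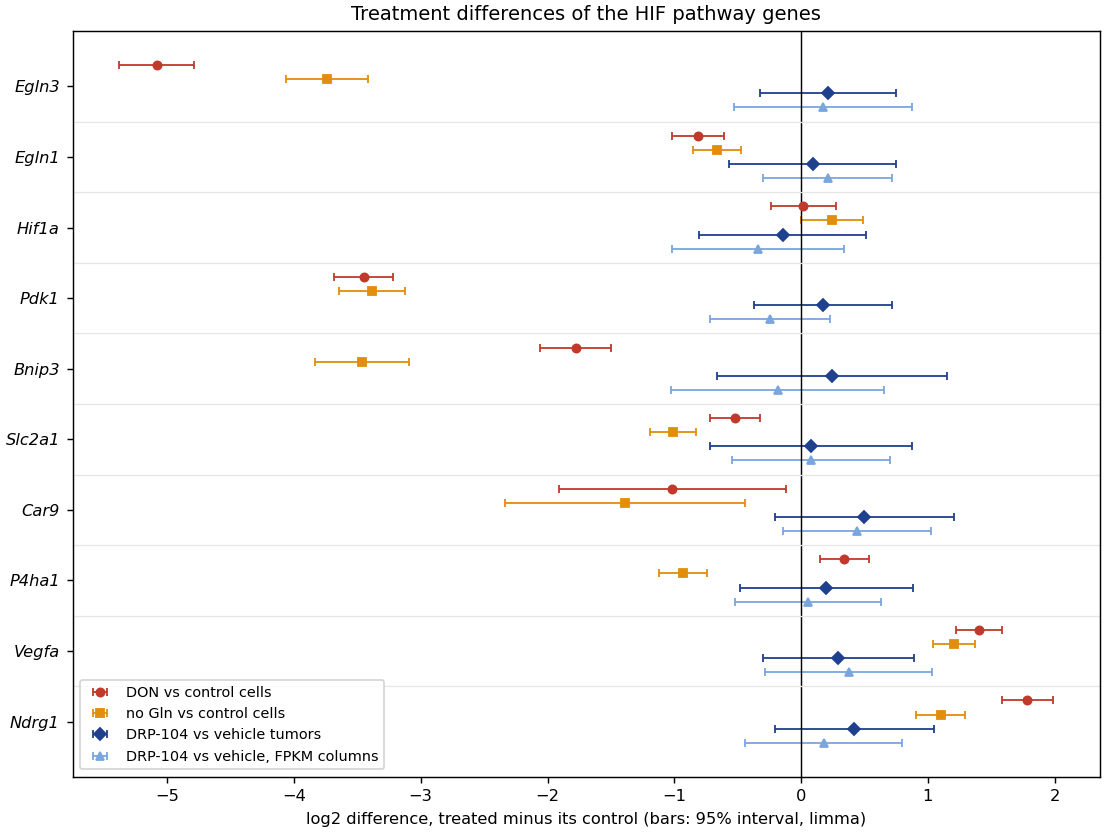
Log2 difference (x axis, treated minus its own control) of each gene (y axis) after DON, without Gln and on DRP-104 in both tumor tables, with bars for the 95% interval from limma (n = 3 against 3). All 20 tumor intervals include 0, while in culture only the 2 intervals of Hif1a do.

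The treatment differences in tumors and in cells were then set against each other in 1 fit of 12 libraries. Compound, dose, time, host cells and place of growth all differ between these settings and cannot be told apart. Of the 10 genes 7 passed, 5 with a higher tumor difference and 2 with a lower one, where 33.1% of all genes tested passed (19.1% higher, 14% lower). For Egln3 the difference on DRP-104 lay 5.29 log2 units above that after DON (SE 0.27, 95% interval 4.71 to 5.87), and for Pdk1 it lay 3.62 above (3.05 to 4.19). Bnip3 (2.02), Car9 (1.51) and Egln1 (0.90) had the same sign. Ndrg1 (-1.36) and Vegfa (-1.11), which were higher after DON, lay below. Slc2a1, Hif1a and P4ha1 did not pass. Car9 no longer passed without vehicle tumor 3 (1.39), Egln1 no longer passed without any 1 library other than DRP-104 tumor 3 (0.71 to 0.97), and Slc2a1 passed without DRP-104 tumor 3 (0.99).

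Levels in tumors were set against culture after all 15 libraries were scaled together. Growth in tissue, the presence of host cells, read depth and any separate sequencing run all go with this comparison and cannot be told apart. Of the 10 genes, 7 passed between vehicle tumors and control cells and all 7 were higher in tumors, where 58.9% of all genes tested passed (33.7% higher, 25.2% lower), and the median log2 difference was 1.07 beside 0.14 over all genes. Car9, close to the detection limit in culture, held 19.5, 26.4 and 23.2 normalized reads in control cells and 1480.2, 1908 and 1290.0 in vehicle tumors, 67.7-fold higher (log2 difference 6.01, SE 0.339, 95% interval 5.29 to 6.73). Vegfa held 2928, 2897 and 3103 in control cells and 11384, 13237 and 11476 in vehicle tumors, 4.04-fold higher (log2 difference 2.01, SE 0.172, 95% interval 1.65 to 2.38). Bnip3 held 698, 821 and 892 in control cells and 2578, 3690.2 and 3183 in vehicle tumors, 3.92-fold higher (log2 difference 1.96, SE 0.301, 95% interval 1.32 to 2.60). Egln3 held 1573, 1937 and 1667 in control cells and 3777, 4713 and 3181 in vehicle tumors, 2.25-fold higher (log2 difference 1.16, SE 0.192, 95% interval 0.75 to 1.57). For all 4 genes every vehicle tumor lay above every control culture. Ndrg1 (1.54), P4ha1 (0.97) and Hif1a (0.59) also passed on the log2 scale, and Slc2a1 (-0.02 to 1.00) and Egln1 (-0.05 to 0.81) did not. Pdk1 stood apart: vehicle tumors held 2164, 2753 and 2167 normalized reads and control cells 2232, 2637 and 2562, with an interval of -0.46 to 0.31.

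Markers of most host cell types were also higher in the tumors. The summed level of the fibroblast list, 397 to 524 normalized reads in control cells, was 37823 to 82008 in vehicle tumors. For the macrophage list the ranges were 1689.5 to 2332 and 8979 to 11479, for the endothelial list 54.7 to 103 and 2965 to 3553, for the acinar list 42.6 to 49.1 and 188 to 3104, and for the erythroid list 22.7 to 36.5 and 894 to 2447. The T cell list overlapped, with 72.3 to 94.4 in control cells and 66.1 to 113 in vehicle tumors. The epithelial list had 273042 to 345954 in control cells and 125741 to 178328 in vehicle tumors. Their part in the tumor levels of the 10 genes was not tested. Hif1a no longer passed without control library 1 (0.50) or 2 (0.54) or without vehicle tumor 2 (0.48) or 3 (0.56). Scaling to the total of reads or quantile normalization brought Egln1 (0.57 and 0.54) and Slc2a1 (0.68 and 0.71) past the threshold, and the sign of Pdk1 turned (0.11 and 0.06).

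Levels of different genes can be compared only per length, as reads per kilobase of gene and per 1 M recovered reads (RPKM). In control cells Slc2a1 was the highest of the 10 at 70.9 ± 3.46 RPKM (SD, n = 3), and Car9 was the lowest at 0.42 ± 0.0654. Between them lay Egln1 (37.1 ± 1.64), Hif1a (35.1 ± 7.83) and Vegfa (31.8 ± 2.39), whose libraries overlapped from each to the next in this order, then Egln3 (23.9 ± 2.56), and then Ndrg1, Pdk1, Bnip3 and P4ha1 between 16.1 and 19.7, again with overlap between neighbors. After DON the order was led by Vegfa (93.0 ± 6.87) and Ndrg1 (74.9 ± 1.45), and Egln3 was down at 0.764 ± 0.0203 RPKM, above Car9 alone. Without Gln, Vegfa (78.9 ± 0.615) again led, and Egln3 (1.93 ± 0.378), Pdk1 (1.82 ± 0.26) and Bnip3 (1.64 ± 0.353) overlapped near the bottom. In vehicle tumors Vegfa (146 ± 9.81) and Slc2a1 (116 ± 29.3) led and overlapped, Bnip3, Ndrg1, Egln3, Hif1a and Egln1 lay between 54.9 and 75.0, and Pdk1 (19.1 ± 2.34) was the lowest. Car9 at 32.3 ± 6.08 RPKM overlapped P4ha1 there.

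The balance between the hydroxylase genes differed in the DON and Gln-free cultures from the controls, and overlapped between the tumor groups. The level of Egln3 divided by that of Egln1, both per length, was 0.577, 0.678 and 0.676 in control libraries, 0.0348, 0.0317 and 0.0319 after DON and 0.0909, 0.0629 and 0.0751 without Gln. It was 1.19, 1.28 and 0.882 in vehicle tumors and 1.10, 1.09 and 1.44 on DRP-104. The 6 tumors were above all 9 cultures, and the treated cultures were below the controls.

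**Figure D3:**
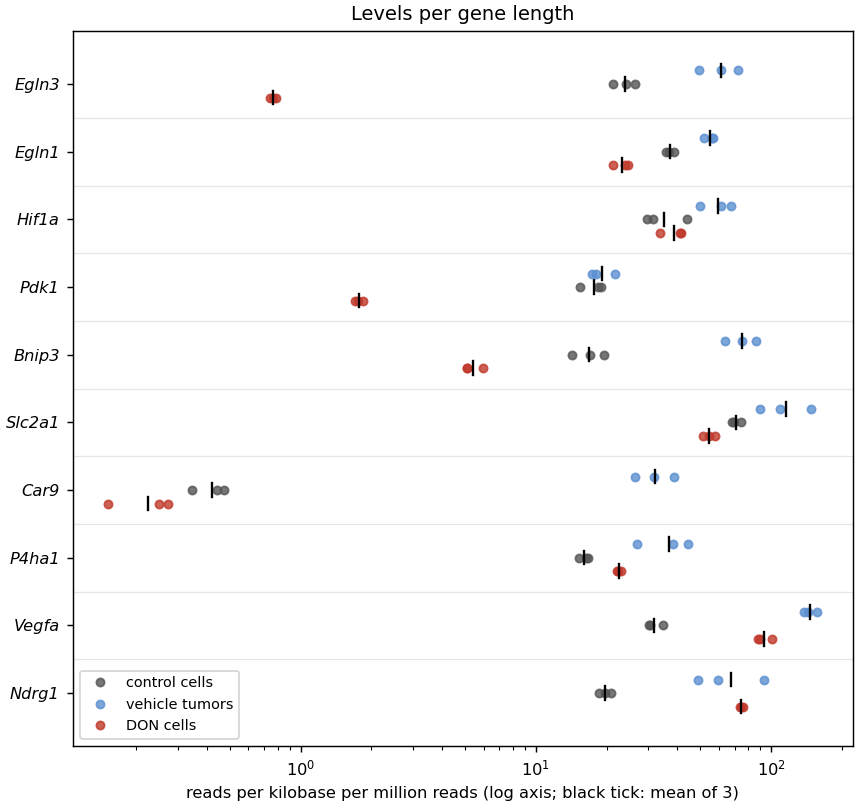
Level of each gene per length (x axis, RPKM, logarithmic) in the 3 libraries of control cells, DON cells and vehicle tumors, with a black tick at each mean of 3. Car9 moves from below 1 in both cultures to 32.3 in vehicle tumors, and Egln3 falls below 1 after DON and stands at 61.2 in vehicle tumors.

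Over the 15 libraries, the genes whose log2 levels followed Egln3 most closely among 10884 genes with a mean of at least 100 included Slc4a4, a sodium bicarbonate cotransporter (r = 0.992), Endod1 (0.991), 4930523C07Rik (0.988) and Sdc1, the cell surface proteoglycan syndecan-1 (0.988). Slc4a4 averaged 1866 normalized reads in control cells, 196 after DON, 407 without Gln, 3273 in vehicle tumors and 3669 on DRP-104. Among the members, Pdk1 was the closest (r = 0.971, rank 50), followed by Egln1 (0.921) and Bnip3 (0.892), and Ndrg1 was the farthest (-0.060). These values are descriptions, since the 15 points share their groups and their scaling.

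A list of 49 other HIF pathway genes was drawn up by role, with earlier results of these libraries known. The p-values of its genes, here and below, are therefore a description and not independent support. After DON, 37 of the 45 tested passed (13 higher, 24 lower) and without Gln 42 of 45 (15 higher, 27 lower), where 68.1% and 69.4% of all genes did, with medians of -0.49 and -0.56 beside 0.02 and 0.01. Genes of glucose and related energy metabolism were mostly lower. All 14 tested passed under both treatments, with 13 lower and 1 higher each time, and the higher gene was Pfkfb4 after DON (0.66) and Pfkfb3 without Gln (1.27), both bifunctional regulators of glycolysis. Ldha, lactate dehydrogenase A, fell by 2.63 after DON and by 2.32 without Gln on the log2 scale, and Pgk1, phosphoglycerate kinase, fell by 1.44 and 1.24. Slc16a3, the lactate exporter MCT4, held 2399.9, 3242 and 2196 normalized reads in control libraries and 42.8, 35.1 and 22.0 without Gln, 78.4-fold lower (log2 difference -6.28, SE 0.223, limma adjusted p = 2.35e-10). Pfkl, the liver-type phosphofructokinase, fell by 3.45 on the same scale (limma adjusted p = 8.07e-11).

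The other target groups were mixed. Of 15 further targets, 13 passed after DON (8 higher, 5 lower) and 15 without Gln (7 higher, 8 lower), and of 5 matrix genes tested, 5 passed after DON (1 higher, 4 lower) and 4 without Gln (1 higher, 3 lower). The shares over all genes tested were 68.1% after DON and 69.4% without Gln. Angptl4, a secreted inhibitor of lipoprotein lipase, held 6729, 7772 and 5567 normalized reads in control libraries and 219.6, 97.9 and 203 after DON, 38.5-fold lower (limma adjusted p = 1.97e-10). Loxl2, a lysyl oxidase that crosslinks collagen, fell by 3.94 after DON on the log2 scale (limma adjusted p = 1e-08). Ankrd37 was 41.0-fold lower without Gln, where it had 2 to 4 recovered reads per library (limma adjusted p = 1.12e-07). Edn1, the vasoconstrictor endothelin-1, rose from 0, 2.5 and 7.79 normalized reads to 35.8, 70.2 and 47.0 after DON (limma adjusted p = 0.000181) and to 112, 103 and 87.1 without Gln (limma adjusted p = 1.46e-05). The control means of Edn1 (3.43 and 3.29) were under the same minimum, so it was tested only through its treated libraries. Cited2, a transcriptional cofactor that competes with HIF for its coactivators, was 3.74-fold higher after DON (limma adjusted p = 7.71e-10). Vldlr, a lipoprotein receptor, was 2.35-fold and 2.47-fold higher (limma adjusted p = 2.03e-07 and 2.93e-07).

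Of the oxygen sensing and HIF subunit genes, 5 of 11 passed after DON (3 higher, 2 lower) and 9 of 11 without Gln (6 higher, 3 lower). Over all genes tested, 68.1% and 69.4% passed. Epas1, the gene of the HIF-2 α subunit, held 304, 315 and 315 normalized reads in control libraries and 9.55, 29.6 and 26.9 after DON, 14.2-fold lower (log2 difference -3.91, limma adjusted p = 2.04e-07), and its log2 difference without Gln was -3.32. Egln2, the third hydroxylase gene, had log2 differences of 0.03 after DON, which did not pass, and -0.31 without Gln, which did. Between the treatments, 28 of the 45 listed genes passed (15 higher after DON, 13 lower, limma). Over all genes tested, 63.3% passed there (31% higher, 32.3% lower). Slc16a3 (3.32), Ankrd37 (3.08) and Adm (2.41) led upward in log2 difference, and Angptl4 (-4.15) and Plod2 (-1.91) were among the largest falls. Gln-free means of Ankrd37 (3.45) and Adm (6.26) were under the filter minimum of 10.

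**Figure D4:**
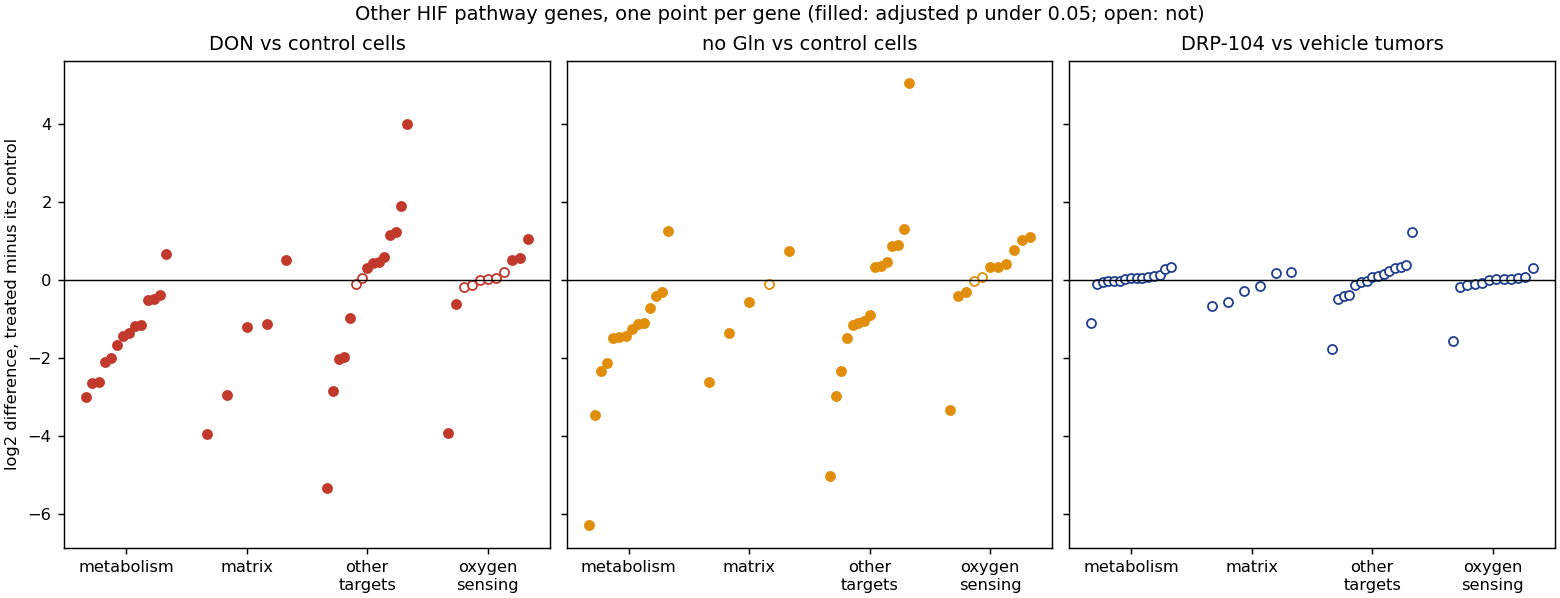
Log2 difference (y axis) of the other HIF pathway genes, 1 point per gene, by role (x axis), after DON, without Gln and on DRP-104. Filled points passed an adjusted p under 0.05 with limma and open points did not: 37 and 42 of 45 points are filled in culture and 0 of 48 in tumors. Over all genes tested, 68.1% passed after DON, 69.4% without Gln and 0% on DRP-104.

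On DRP-104, 0 of 48 of these genes passed with limma (3 at an unadjusted p under 0.05), 0 with edgeR and 0 with DESeq2, with a median log2 difference of 0.02. In the FPKM columns 0 of 47 passed (2 at an unadjusted p under 0.05). The tumor difference exceeded or fell short of the DON difference for 26 of 48 (21 higher, 5 lower, limma), where 33.1% of all genes passed, and 11 of 15 metabolic genes were among the 21. Angptl4 (4.93, limma adjusted p = 5.22e-06), Epas1 (4.23, 7.96e-05) and Loxl2 (3.67, 1.8e-05) had the largest positive log2 values, and Edn1 (-4.02), Cited2 (-2.02) and Plod1 (-1.19) the largest negative ones. Between vehicle tumors and control cells 33 of 48 passed (22 higher, 11 lower, limma), with a median of 0.40 beside 0.14 over all genes. Over all genes tested, 58.9% passed this comparison (33.7% higher, 25.2% lower). All 6 matrix genes were higher, and Lox, the lysyl oxidase, had 0 reads in all control libraries and 1300.5, 2632 and 1037 normalized reads in vehicle tumors, at least 642-fold higher against a floor of 3 reads per control library. Adm and Slc2a3 had the next largest rises in log2 difference (4.89 and 4.81). Slc2a3 had 0 to 8 recovered reads per control library, and its log2 difference ran from 3.07 to 5.35 under the alternatives. Vehicle tumors held 530, 2146 and 633 normalized reads of Adm, with 4.26 to 5.27 under the alternatives. Of the metabolic genes 3 were higher and 5 lower, Eno1 among the lower ones (-0.87, limma adjusted p = 5.14e-05), and the hydroxylase gene Hif1an (-0.87) and the hormone gene Stc2 (-1.46) were lower too.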

How the data were processed

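RNA of 9 cultures and 6 tumors was extracted by the authors, and Novogene prepared libraries, aligned reads with HISAT2 and ran DESeq2. The submitters' processing notes also name STAR 2.5, CASAVA and GRCm39, while coordinates in the FPKM table match GRCm38 (72.2% of 34490 genes identical to GENCODE M21). The use of strand is not given in the sources used here, so reads of overlapping genes, or of near-identical copies such as Eno1 and Eno1b, could be shared. The deposited signal is a read count divided by 1 size factor per library within each table, and the deposited FPKM values are further divided by gene length. Columns with the authors' fold changes and p-values were not used.

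Whole reads were recovered from the deposited values (tolerance 0.0051, lowest share 99.96%). The design had assumed normalized values, and limma 3.58.1 (R 4.3.3, lmFit, eBayes with trend) was run on log2(value + 1) for genes with a mean of at least 10, or log2(FPKM + 1) with a mean FPKM of at least 0.5, with Benjamini-Hochberg adjustment over all genes tested and a threshold of 0.05. This scale understates folds of low genes. The mean was over all libraries of a fit, so a gene under the minimum in some groups could enter through others. Car9, Edn1, Ankrd37, Adm, Lox and Slc2a3 did so in some comparisons. DON against Gln-free and tumor against culture used recovered reads scaled by median-of-ratios over 9 and 15 libraries. The tests were also run on simulated data with 200 changed genes per comparison, far fewer than passed in culture. That run cannot speak to scaling or error rates in the culture comparisons, and its outcome is not given here. Alternatives were edgeR 4.0.16, DESeq2 1.42.0, other filters, pseudocounts, scalings and thresholds, the replicate block and leaving out each library. The fit of DON against Gln-free cells without controls and the block on column numbers were added after seeing the data.

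The members, the gene lists and the promoter motifs were chosen with earlier results of these data known. Other genes named are, per comparison, the 3 largest rises and 3 largest falls among list genes past the threshold without overlap, Lox against its floor, and the 5 genes most correlated with Egln3, some of which are not reported here. Ldha, Pgk1, Egln2, Pfkfb4 and, in the Gln-free comparison, Epas1 were named after their values were seen. Promoters came from RefSeq (GRCm38.p6). Tables were handled in Python 3.11.15 with pandas 2.3.3, and plots drawn with matplotlib 3.10.9.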

Additional observations from a re-analysis of the deposited data

Results flagged for a closer look

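Car9 lay below the control mean in all 3 DON libraries and above the vehicle mean in all 3 DRP-104 tumors, so its treatment difference in tumors exceeded that in cells by 1.515 log2 units. This difference passed the interaction threshold of limma, and it is given as a description with no p because the gene was chosen with these results known. The third DRP-104 tumor, at 1227 normalized reads of Car9, lay barely above the vehicle mean of 1223, and the tumor groups overlapped. The DON libraries had only 10 to 18 recovered reads of Car9. P4ha1 lay above the control mean in all 3 DON libraries and below it in all 3 Gln-free libraries, and the log2 difference between the treatments was 1.306, which passed the threshold of limma and is likewise a description with no p. Of the other HIF pathway genes, 26 of 48 had a treatment difference in tumors that differed from that in cells by the interaction test of limma with an adjusted p under 0.05. Over all genes tested, 33.1% did.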

How the results depend on the processing

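Under the alternatives run, 0 of the single gene differences that had passed the threshold changed sign, and counts of members and of other genes past the threshold stayed within 1.5 times of the reported ones. After DON, 8 or 9 of the 10 genes passed, and without Gln 8 to 10. DON against Gln-free cells gave 5 to 7, the tumor difference minus the cell difference 5 to 8, vehicle tumors against control cells 6 to 9, and DRP-104 against vehicle 0 throughout. Of all single gene values under the alternatives, 1160 kept their direction and side of the threshold, 26 no longer passed, 12 newly passed and 27, none of which had passed, changed sign, mostly small tumor differences when 1 tumor or column was left out. The causes were not tested. With the replicate number as a replicate block, 0 of 10 genes passed in the tumors and 7 of 10 between DON and Gln-free cells, where the same 6 libraries without the block also gave 7 and all 9 libraries gave 6. Deviations of same-numbered libraries had r of -0.438, 0.0544 and -0.457 in tumors and of -0.00943, -0.00577 and 0.250 in DON and Gln-free cultures. These were of mixed sign, and the numbers were not taken as pairs. With 3 libraries per group the deviations are not independent of each other, so these r cannot exclude pairing. The control columns carry a number under the name of the vehicle tumors, and it was not matched to the numbered control samples of the labels. A block on that number, added after seeing the data, gave 8 of 10 genes after DON, where Car9 no longer passed (-1.02), and 10 without Gln, where Hif1a newly passed (0.25). For same-numbered libraries r was of mixed sign there too (from -0.0438 to 0.0492 after DON and from -0.128 to 0.130 without Gln). Quantile normalization shifted the median log2 difference over all genes from 0.02 to 0.13 after DON, and for vehicle tumors against control cells the median was 0.14 with median-of-ratios scaling, 0.09 with edgeR, 0.33 per total reads and -0.15 after quantile normalization. Depth limits Car9 in culture, with 7 to 43 reads per library.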
